A study of Caenorhabditis elegans with 2 samples.

Results

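The nuclear hormone receptor genes examined here are the 269 protein-coding genes of Caenorhabditis elegans whose symbol is nhr- followed by a number, out of 19973 protein-coding genes on the nuclear chromosomes in the Ensembl annotation of WBcel235. They were defined by symbol alone, but the set was chosen with earlier results of these data known. Each symbol stood for 1 gene record. Of these genes 167, or 62.1%, lie on chromosome V, which holds 25% of all protein-coding genes; 33 lie on IV, 23 each on I and X, 15 on II and 8 on III. Receptor genes with other names, such as daf-12, were not counted as members.

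Nuclear receptors are transcription factors with a zinc-finger DNA-binding domain and, in most cases, a pocket that can bind a lipid-like ligand. Nematodes carry a greatly enlarged set, most of it derived from an ancestor related to HNF4, next to a few receptors with orthologues across animal phyla. In C. elegans the enlarged group includes regulators of fat metabolism, detoxification and pathogen responses, and many of its genes lie in tandem arrays on chromosome V.

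The data are CEH-39 peaks from chromatin immunoprecipitation and sequencing (ChIP-seq). CEH-39 is a ONECUT homeobox protein known as an X signal element in sex determination. The samples were 2 biological replicates of mixed-stage, mixed-sex embryos of strain OP169, genotype unc-119(ed3) III; wgIs169, in which the integrated transgene wgIs169 expresses eGFP-CEH-39. Whole embryos of many stages were pooled, so a peak cannot be tied to a tissue, and there was no second group to compare. A gene is called bound where a summit of the authors' list thresholded by the irreproducible discovery rate (IDR) lay from 1000 bp upstream to 200 bp downstream of any of its transcript starts. The promoter and copy number of the transgene are not given in the labels. Signal values are the authors' own peak scores on a scale that no label or file states, and read depth is unknown. The list of replicate 1 held 3958 peaks at a q-value under 0.05 and that of replicate 2 held 790. The peaks of bound members are therefore given in both replicates, while several other peaks are given by their pooled value only. No test between groups was possible. Shares carry 95% exact (Clopper-Pearson) intervals, which cover counting error only and treat neighbouring genes as independent. For the main counts of 0 the limit set by 3 counts over the number of genes is given with the exact upper bound.

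Of the 269 receptor genes, 6 were bound, nhr-47, nhr-86, nhr-34, nhr-49, nhr-71 and nhr-1. This is 2.23% (interval 0.823 to 4.79%), against 6.48% of all protein-coding genes, and the upper bound of the interval lies below that background. The background counts a peak for every gene whose window holds its summit. With each peak counted for the closest start alone, members stayed at 2.23% and other genes fell to 4.6%, which lies within the interval. Another 10 members had only a weaker peak, which brought the members with a pooled peak at a q-value under 0.05 to 16, or 5.95% (3.44 to 9.48%), against 12.5% of all genes. No peak at these starts was among the strongest of the series: the IDR list held 439 peaks stronger than the best of them, at nhr-47.

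Sequences under the summits are shown for 5 of the bound members (that of nhr-49 is not shown) and for a pair of weaker sites that held a searched hexamer. Each holds the summit and 50 bases on either side, in WBcel235 (ce11), 5′ to 3′ on the strand of the receptor gene, from the RefSeq genome sequence. Capitals mark any match to ATCGAT (the ONECUT core, its own reverse complement), ATTGAT or GACGCA, the last 2 searched on both strands. A line without capitals has no match.
nhr-47, chrV:5505165-5505265, plus strand: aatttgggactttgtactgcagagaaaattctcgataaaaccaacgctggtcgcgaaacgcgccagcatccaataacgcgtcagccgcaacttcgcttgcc
nhr-86, chrV:2067001-2067101, minus strand: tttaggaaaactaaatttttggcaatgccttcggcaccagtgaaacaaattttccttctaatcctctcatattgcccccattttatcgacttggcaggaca
nhr-34, chrIV:9667322-9667422, minus strand: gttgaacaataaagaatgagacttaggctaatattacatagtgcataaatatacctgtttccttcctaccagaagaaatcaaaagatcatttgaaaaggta
nhr-71, chrX:13746853-13746953, plus strand: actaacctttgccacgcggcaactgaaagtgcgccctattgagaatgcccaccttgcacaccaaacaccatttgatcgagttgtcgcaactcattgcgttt
nhr-1, chrX:17513706-17513806, plus strand: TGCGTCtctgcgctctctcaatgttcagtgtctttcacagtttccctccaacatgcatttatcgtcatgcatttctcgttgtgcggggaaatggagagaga
nhr-142, chrV:5790970-5791070, minus strand: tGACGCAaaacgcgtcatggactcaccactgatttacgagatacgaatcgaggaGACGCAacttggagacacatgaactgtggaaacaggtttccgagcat
nhr-46, chrIV:5749922-5750022, minus strand: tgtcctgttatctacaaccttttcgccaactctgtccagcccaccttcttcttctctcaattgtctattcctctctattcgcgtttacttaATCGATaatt

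None of the 6 bound members had ATCGAT or ATTGAT within 50 bp of its IDR summit, and 1, nhr-1, had GACGCA. In the whole list of 1244 IDR summits the shares were 17.4%, 5.87% and 17.9%. With the weaker peaks included, 2 of 17 peaks at receptor starts held ATCGAT (nhr-46 and the weaker of the pair at nhr-49), 1 held ATTGAT (nhr-133) and 4 held GACGCA, against 14.9%, 8.41% and 15.6% of all 2698 pooled peaks at a q-value under 0.05. With so few peaks at receptor starts, these counts set no order between receptor genes and the rest.

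The strongest peak at a receptor start was that of nhr-47 (V, 5505253 to 5509956, plus strand). Its pooled signal value was 125.8, rank 440 of 30000, and its summit lay 38 bp upstream of the single annotated start, within an annotated non-coding RNA exon. The signal value was 95.7 in replicate 1 (rank 528) and 34.9 in replicate 2 (rank 319). The −log10 q-values were 3.65 and 2.11, so the peak passed a q-value of 0.05 in each replicate. This summit also lay 358 bp upstream of dnj-19, which encodes a DnaJ-family co-chaperone, so the peak cannot be assigned to either gene alone.

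The peak of nhr-49, a regulator of fat metabolism and the fasting response, was the other one that passed a q-value of 0.05 in both replicates. The pooled signal value was 87.7 (rank 961), with 52.5 in replicate 1 (rank 1609) and 33.1 in replicate 2 (rank 370). Its −log10 q was 3.65 in replicate 1 and 2.17 in replicate 2. The gene (I, 9869651 to 9874680, plus strand) has 6 annotated starts, and the summit lay in an intron, 327 bp upstream of an internal start and 1134 to 1250 bp downstream of the 4 outer starts. A second, weaker pooled peak (signal 50.2, −log10 q 1.52) stood 315 bp upstream of the outermost start and contained ATCGAT. Replicate 1 gave that second peak a signal value of 63.1 (rank 1185), above its value at the first one, and replicate 2 had no overlapping peak. Replicate 1 was thus stronger near the outer starts, and replicate 2 had a peak at the internal start only.

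nhr-86, a receptor known for sensing a bacterial metabolite in pathogen defence, had a pooled signal value of 91.7 (rank 892). The summit was intergenic, 201 bp upstream of the outer of its 2 starts (V, 2061106 to 2066850, minus strand). The value was 66.7 in replicate 1 (rank 1073, −log10 q 3.65) and 21.1 in replicate 2 (rank 1497, −log10 q 0.656). The peak was thus past the q-value threshold in replicate 1 only.

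nhr-34 (IV, 9664360 to 9675672, minus strand) had its peak inside the gene. The pooled signal value was 87.8 (rank 959), with 64.9 in replicate 1 (rank 1126) and 22.4 in replicate 2 (rank 1196, −log10 q 0.828). Of its 5 starts only the innermost was near the summit, 291 bp away, and the outermost lay 8300 bp upstream of it. With 1 start per gene, nhr-34 and nhr-49 are not bound, which leaves 4 bound members (1.49%, against 6.23% of other genes).

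Both X-linked bound members had weaker peaks. At nhr-71 the pooled signal value was 81.5 (rank 1117), with 54.6 in replicate 1 (rank 1497) and 22.0 in replicate 2 (rank 1297, −log10 q 0.773), and the summit lay 412 bp upstream of the outer start. At nhr-1 the pooled value was 79.9 (rank 1155), the lowest of the 6 and close to the IDR limit of 76.5. Replicate 1 gave nhr-1 a value of 79.3 (rank 793), but replicate 2 gave 12.8 (rank 9478, −log10 q 0.066), with a summit 145 bp away from the pooled one. nhr-1 was the bound member on which the replicates differed most in rank.

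**Figure D1:**
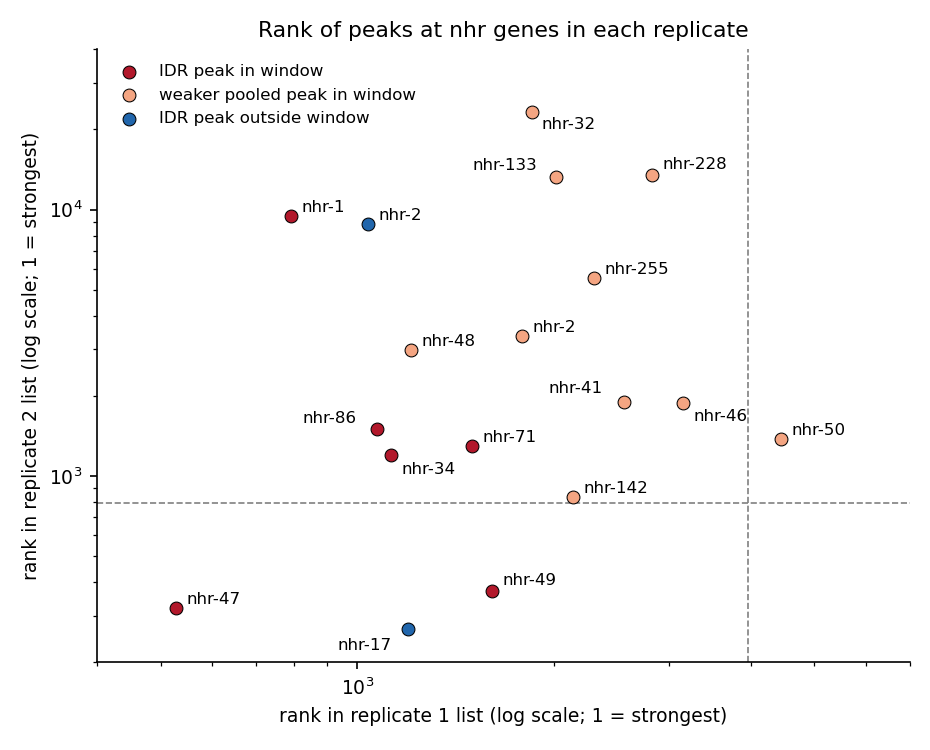
Rank by signal value in the list of replicate 1 (x, log scale) and replicate 2 (y, log scale) of each pooled peak at an nhr gene that has a peak in both lists; dashed lines mark the number of peaks at a q-value under 0.05 in each list (3958 and 790). Of the peaks in promoter windows only those of nhr-47 and nhr-49 fall below both lines, and nhr-1, nhr-32, nhr-133 and nhr-228 rank far lower in replicate 2 than in replicate 1.

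Weaker peaks stood at the starts of members that the IDR list missed. The strongest was at nhr-142 (V), 467 bp upstream of its start and 210 bp upstream of F44E7.9, with a pooled signal value of 68.9, 44.0 in replicate 1 (rank 2140) and 25 in replicate 2 (rank 833, −log10 q 1.21). Replicate 2 thus ranked this peak above those of nhr-86, nhr-34, nhr-71 and nhr-1. nhr-32 (X) followed with 66.5, but only 9.37 (rank 23261) in replicate 2. A peak just upstream of nhr-2, a gene known for its early zygotic expression in embryos, had 65.6, with 49.5 in replicate 1 (rank 1784) and 17 in replicate 2 (rank 3367). These 3 weaker peaks had the same pooled −log10 q, 3.52, as the IDR peaks.

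The next were nhr-48 (59.4), a relative of daf-12, then nhr-133 (57), nhr-255 (54), nhr-50 (49.7), nhr-41 (49.4), the TR2/TR4 orthologue, nhr-228 (49) and nhr-46 (48.7). Their pooled −log10 q ran from 2.54 at nhr-48 down to 1.42 at nhr-46. Just under the threshold stood nhr-13 (46.5, −log10 q 1.21), a partner of NHR-49 in the control of fatty acid desaturation, and nhr-237 (45.9, 1.14). At nhr-13 the peak of replicate 1 had a −log10 q of 3.21, and replicate 2 had no peak in the window. Of the 11 weaker peaks 10 passed a q-value of 0.05 in replicate 1 (the exception was nhr-50, −log10 q 1.03) and 0 passed in replicate 2, where their ranks ran from 833 to 23261. Over all members, 25 (9.29%) passed in the list of replicate 1, against 16.2% of all genes, and 2 (0.743%) in that of replicate 2, against 3.98%.

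Some of these summits lay on other annotated genes. Those of nhr-41 and nhr-255 fell on tRNA genes, as did an IDR summit (signal 89.2) inside an intron of nhr-17 (X), 2604 bp downstream of that gene's start and outside the window. The nhr-17 peak had rank 1195 in replicate 1 and 267 in replicate 2 (−log10 q 2.03), so it passed the threshold in both. Whether the peaks belong to the tRNA genes or to the receptor genes was not tested.

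A pair of IDR summits lay just beyond the upstream limit of a receptor gene's window. At nhr-2 a peak with a signal value of 77.0 had its summit 1016 bp upstream and contained ATCGAT; the overlapping peak of replicate 1 (67.9, rank 1038) had its summit 996 bp upstream, inside the window, and that of replicate 2 had 13.1 (rank 8850). At nhr-8, a receptor of xenobiotic and cholesterol responses, a summit (85.1) lay 1066 bp upstream, but only 128 bp upstream of mrps-24, a mitochondrial ribosomal protein gene. A window of 2000 bp adds these 2 genes and no other member, for 8 bound of 269, or 2.97%, against 8.39% of other genes.

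**Figure D2:**
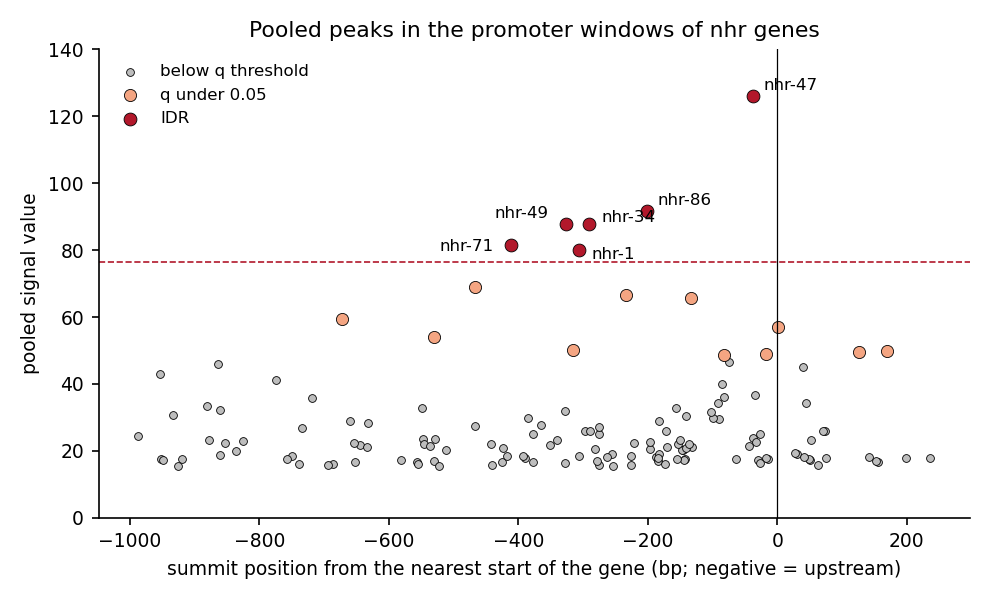
Pooled signal value (y) of each pooled peak in the promoter window of an nhr gene against the position of its summit from the nearest start of that gene (x, bp, negative upstream); the dashed line marks the lowest IDR signal, 76.5. The 6 IDR summits all lie upstream, 38 to 412 bp from a start, in a window that itself extends mostly upstream. Peaks below the q threshold have values from 15.6 up to 46.5, that of nhr-13.

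The window reaches 1000 bp upstream of a start but only 200 bp downstream, so the rule itself places most summits upstream and limits their distance. All 6 IDR summits at receptor starts lay upstream, at a median distance of 299 bp from the nearest start. The 11 weaker ones lay at a median of 169 bp, 8 of them upstream. Pooled peaks that did not reach a q-value of 0.05 made 126 pairs of a member and a peak, with the peak upstream in 109. A single peak was counted for both nhr-94 and nhr-152. They come from the relaxed list of 30000 peaks, which the deposited name describes as peaks and background.

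Peaks of any strength were nearer in frequency to those of other genes. Of the members 108, or 40.1% (interval 34.2 to 46.3%), had a pooled relaxed peak in the window, against 43.7% of all genes, which lies within the interval. In replicate 1 the shares were 38.3% (32.5 to 44.4%) and 42.3%. In replicate 2 they were 35.3% (29.6 to 41.4%) and 42.5%, which lies above the interval. Outside V 42.2% of members and 48% of other genes had a pooled relaxed peak. On V this was 38.9% (31.5 to 46.8%) of members and 31% of other genes in the pooled list, 37.1% and 29.7% in replicate 1, and 32.3% and 33% in replicate 2, so the order on V differed between the replicates. The strongest such peak had a median signal value of 22.7 for members (quartiles 18.2 and 32.8) and 28.2 for other genes (20.3 and 53.6). Of genes with a relaxed peak, 5.56% of members and 14.9% of others reached the IDR list.

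**Figure D3:**
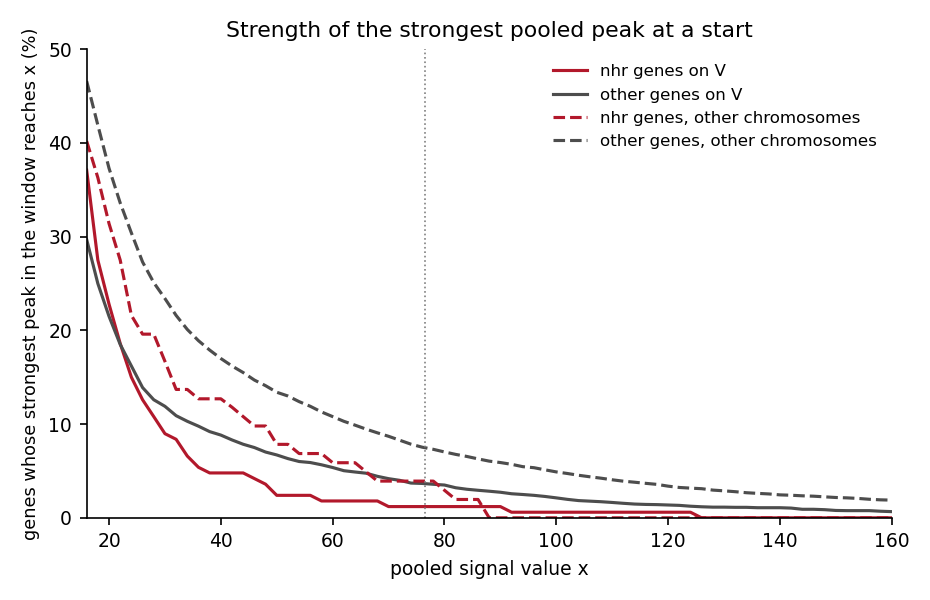
Percentage of genes whose strongest pooled peak in the window has at least the signal value on the x axis, for nhr genes (red) and other genes (grey) on V (solid) and on other chromosomes (dashed); the dotted line marks the IDR limit. On V the red curve starts above the grey one and ends below it: at a value of 48, 3.59% of nhr genes and 7.02% of other genes remain.

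Part of the low count went with chromosome. On V, 2 of 167 members were bound, or 1.20% (interval 0.145 to 4.26%), and 3.65% of the 4827 other genes there, which lies within that interval. Outside V the shares were 3.92% (4 of 102, interval 1.08 to 9.74%) and 7.47%. Had the members on each chromosome been bound at the rate of the other genes there, 13.4 would have been bound, against 17.6 at the genome-wide rate of other genes; the observed 6 are 0.447 and 0.341 of these. For peaks at a q-value under 0.05 the values were 26.2 expected by chromosome and 16 observed (0.611). Other genes with a start within 50 kb of a receptor gene were bound in 4.89% of cases, which as a single rate, not split by chromosome, gives 13.2 expected. On V alone 2.43% of such neighbours were bound (36 of 1484, interval 1.7 to 3.34%), against the 3.65% of all other V genes.

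The counts on single chromosomes are small. On X 2 of 23 members were bound (8.70%, interval 1.07 to 28.0%) against 5.58% of other X genes, and 5 of 23 (21.7%, 7.46 to 43.7%) had a peak at a q-value under 0.05 against 10.2%. On I, 1 of 23 was bound against 9.39% of other genes, and on IV 1 of 33 against 6.47%. None was bound on II (0 of 15, which allows a share of up to 20% by 3 counts and 21.8% by the exact bound) or III (0 of 8, up to 37.5% and 36.9%). Each of these intervals includes the share of the other genes.

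**Figure D4:**
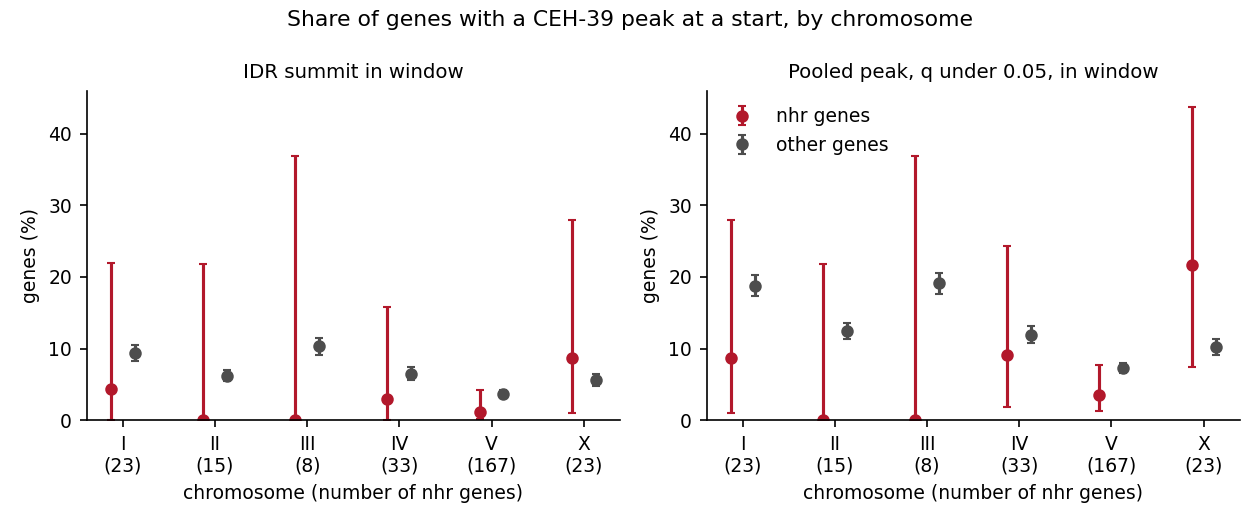
Percentage of nhr genes (red) and other protein-coding genes (grey) on each chromosome with an IDR summit (left) or a pooled peak at a q-value under 0.05 (right) in the window; bars are 95% exact intervals and numbers in brackets count nhr genes. The shares of nhr genes lie below those of other genes on all chromosomes but X, with intervals that reach them on each chromosome.

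Most receptor genes stand in runs, and the runs held few peaks. With neighbouring 5′ ends at most 20 kb apart, 172 members formed 46 runs of 2 or more, and 97 stood alone. Of the lone members 5 were bound (5.15%, interval 1.69 to 11.6%), and of those in runs 1, nhr-49, whose neighbour is nhr-69 (0.581%, 0.0147 to 3.20%). Among all protein-coding genes the share was 6.48%, near that of the lone members. For peaks at a q-value under 0.05 the shares were 12.4% (12 of 97) and 2.33% (4 of 172), with intervals of 6.56 to 20.6% and 0.637 to 5.85%. Among all genes this share was 12.5%. On V alone, 0 of 128 members in runs were bound, which allows up to 2.34% by 3 counts and 2.84% by the exact bound, and 2 of 39 lone members, nhr-47 and nhr-86. The share was 3.56% of all genes on V. It was 2.43% of other V genes within 50 kb of a member, which lies under the exact bound of 2.84%. At a distance of 10 kb, 0 of 150 members in runs were bound and 6 of 119 others; at 50 kb, 2 of 188 and 4 of 81. The upstream gene was divergent for 18.8% of members in runs of 5 or more and 48.5% of lone members, at a median distance of 833.5 and 3555 bp, and the part of this spacing in the counts was not tested.

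The 10 runs of 5 or more receptor genes, 9 of them on V, held 80 members and 37 other genes, and not 1 IDR summit lay inside them. For the 80 members, 0 bound allows up to 3.75% by 3 counts and 4.51% by the exact bound, against 6.48% of all genes. On V, however, 3.56% of all genes and 2.43% of other genes within 50 kb of a member were bound, both under these limits. Of the 37 other genes 0 were bound, too few genes to set them apart from the 3.56% of all genes on V or the 6.48% of all genes. The run with the most members went from nhr-123 to nhr-131 (V, 451451 to 497297), with 12 over 45.8 kb. Its highest relaxed signal value was 28.3, at nhr-131, and its members lay 102.2 to 145.1 kb from the nearest IDR summit. Only 2 runs of this size held a peak at a q-value under 0.05. In the run of 10 from nhr-13 to nhr-96 (V, 2192485 to 2235180) it was the peak of nhr-133, 1 bp downstream of a start (signal 57). In the run of 9 from nhr-182 to nhr-226 (V, 2257420 to 2296977) it was that of nhr-228, 18 bp upstream of a start (49). In replicate 2 these peaks ranked 13294 and 13507. The run from nhr-185 to nhr-156 (V, 3844429 to 3908452), 10 members over 64 kb, reached no more than 27, at nhr-158. The run of 5 from nhr-60 to nhr-282 had no pooled peak at any member start, although the nearest IDR summit was 6.85 kb from nhr-60, a gene known from seam cells. A shorter run, of the 4 genes nhr-74, nhr-73, nhr-259 and nhr-244 on I, also had no pooled peak; only 12.9% (median) of the 31-base words in its windows occur once in the genome, and the part of repeated sequence in this was not tested.

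**Figure D5:**
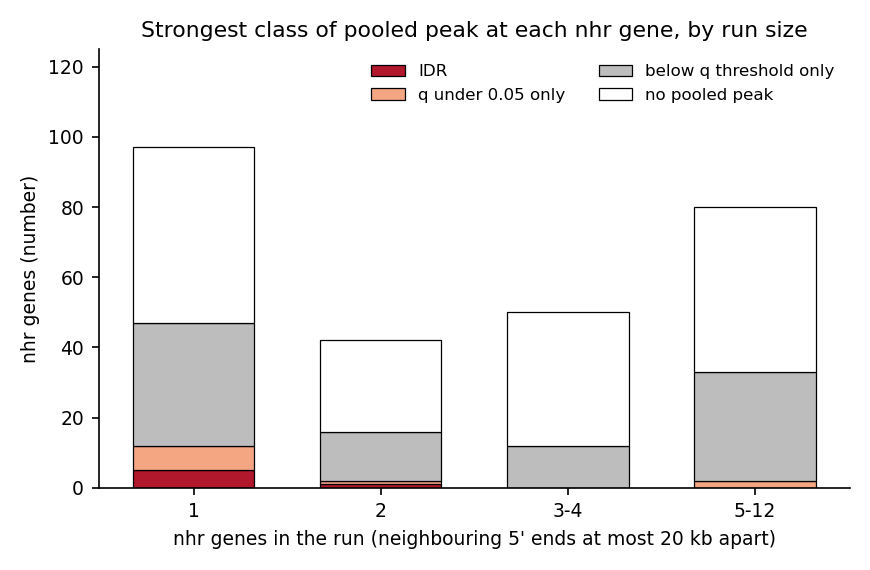
Number of nhr genes (y) by the size of the run they belong to (x), split by the strongest class of pooled peak in the window. The 97 lone genes include 5 with an IDR peak and 7 more at a q-value under 0.05; the 80 genes in runs of 5 to 12 include 0 and 2, while 31 of them have a peak below the q threshold only.

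The distance from a receptor gene to the nearest IDR summit had a median of 48.9 kb (quartiles 28.2 and 105.0 kb), against 29.2 kb for other genes. On V the medians were 76.1 and 50 kb. Members in runs of 5 or more stood at 85.3 kb and lone members at 33.7 kb.

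Promoter windows of members were compared with those of all genes for features the choice by symbol did not use. ATCGAT occurred from 1000 bp upstream to 200 bp downstream of the 5′ end of 71 members, or 26.4%, against 34.7% of all genes, and of 28.1% of members on V against 29.9% of other V genes. ATTGAT occurred in 77.7% against 75%, and GACGCA in 30.1% against 25%. In the shorter window from 250 bp upstream to 50 bp downstream the shares were 7.06% against 12.3% for ATCGAT, 38.3% against 30.7% for ATTGAT and 13.8% against 8.80% for GACGCA. For members and other genes on V they were 8.98% and 9.63%, 40.7% and 30.9%, and 16.2% and 8.70%, in the same order. The GACGCA share was 20% in runs of 5 or more and 8.25% in lone members. A match describes these letters only and shows no binding.

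Base composition and spacing were measured as well. The median GC content was 33.9% for member windows and 35.0% for all genes, and 38.2% for the 6 bound members. For bound other genes it was 36.8%. These windows stand at the 5′ end of each gene, so they do not contain the IDR summits of nhr-34 and nhr-49. The nearest upstream gene lay at a median of 1728 bp from member starts against 1157 bp for all genes, and was divergent in 39.4% against 45.4%; among other bound genes it was divergent in 68.9%, at a median of 626.5 bp. Repeated sequence was measured because receptor genes are paralogues: the share of 31-base words in the window that occur once in the genome had a median of 100% in members and in other genes, and was under 50% for 9 members (3.35%) and 3.31% of other genes. All 6 bound members had 100% in this window at the 5′ end.

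Of 9 conserved receptors with orthologues in other phyla, 0 were bound (exact interval up to 33.6%, against 6.48% of all genes). A pooled peak at a q-value under 0.05 stood at 2, nhr-48 and nhr-41 (22.2%, against 12.5% of all genes), too few to set the list apart. nhr-23, which drives the moulting cycle, had a relaxed peak with a signal value of 35.7 (−log10 q 0.444), 37.6 in replicate 1 (−log10 q 2.68) and 8.92 in replicate 2, so the replicates fell on opposite sides of the threshold. nhr-91 had 30.8, nhr-67, the tailless orthologue, 17, and nhr-85, the orthologue of Drosophila E75, 16, none past the threshold. nhr-6, nhr-8 and nhr-25, which act in spermatheca development, xenobiotic response and epidermal development, had no pooled peak in their windows. nhr-25 had a peak in replicate 1 alone (16.9, rank 10155).

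Of 18 studied receptors of the HNF4-related group, 2 were bound, nhr-49 and nhr-86 (11.1%, interval 1.38 to 34.7%, which includes the 6.48% of all genes), and nhr-2 had a weaker peak. nhr-10, which acts in propionate breakdown, had 43 in the pooled list (−log10 q 0.912), with 37.8 in replicate 1 and no peak in replicate 2. Its partner gene nhr-68 had no pooled peak. nhr-80, like nhr-13 a partner of NHR-49 in lipid metabolism, had 21.3, and nhr-66, another partner, 18. Values of 21.3, 21.3, 22.2 and 19.2 at nhr-31, nhr-40, nhr-64 and nhr-62 were all far under the threshold. nhr-14, nhr-57, nhr-60, nhr-69, nhr-76 and nhr-114 had none in the pooled list.

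Receptors without an nhr symbol, and receptor partners, were looked at for comparison. None of daf-12, fax-1, odr-7, sex-1 and unc-55 was bound or had a pooled peak at a q-value under 0.05. sex-1, which like ceh-39 is an X signal element, had a relaxed pooled peak of 29.7 at 221 bp from its start. The strongest peak of replicate 1 in its window lay elsewhere, at 810 bp (34, −log10 q 2.23), and replicate 2 had none. By the window rule sex-1 was not bound, but its nearest IDR summit lay inside the gene, 0.934 kb downstream of its start and outside the window. Of 11 cofactor, ligand synthesis and target genes 2 were bound (18.2%, interval 2.28 to 51.8%, against 6.48% of all genes). The histone acetyltransferase gene cbp-1 had a signal value of 317.1, and by signal ranked 21 in replicate 1 and 116 in replicate 2, above every receptor gene in each list. Its −log10 q in replicate 2 was 1.89, below those of nhr-47 (2.11) and nhr-49 (2.17), so rank and q-value order these peaks differently. din-1, a corepressor partner of DAF-12, had 84.5, and 76.4 in replicate 1 (rank 854); in replicate 2 its strongest peak (18.8, rank 2253) lay near another of its 6 starts. The mediator gene mdt-15, a partner of NHR-49, had 28.3 (−log10 q 0.155), and gei-8, daf-9, daf-36, dhs-16, fat-5, fat-6, fat-7 and acs-2 had no pooled peak in their windows.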

How the data were processed

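The deposited files used were 4 peak lists in ce11, in the 10-column narrowPeak layout. Per the deposited description files, the relaxed lists were called on each replicate and on both replicates' reads together, with a control; the IDR list keeps peaks that pass a threshold on agreement between replicates. No label or file names the aligner or peak caller, and the control was not analysed here. Column 7 is the deposited signal value, a score used only to rank, filter and describe peaks within a list. Column 9 is the deposited −log10 q-value, and a value of at least 1.301 was taken as a q-value under 0.05. Values of 3.52 (pooled) and 3.65 (replicate 1) are the highest in their lists and are tied over many peaks. Each of the 1244 IDR peaks is also in the pooled list, with the same position and signal.

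Summits were placed by the windows described with the results, using starts of all transcripts of protein-coding genes in Ensembl release 115. A replicate's value is that of its strongest peak overlapping the pooled peak by at least 1 bp; for members of the gene lists without a peak at a q-value under 0.05, and for lists of other genes, it is its strongest peak in the window. Expected counts apply the share bound among other genes of each chromosome to the members there. Motif, GC and repeat measures used windows at the 5′ end of each gene. Members, lists and measures were chosen with earlier results of these data known. Named genes are all members with an IDR or weaker peak and those of 4 lists; members just outside a threshold or window, of runs, and nhr-17 and nhr-280 were named after their values were seen. No statistical test was run, since the series has 1 group and the members are not replicates. The window functions found simulated summits placed inside windows, but none was placed just beyond a window limit, so the limits were not tested from outside. Counts and intervals were computed in Python 3.11.15 with pandas 2.3.3, scipy 1.17.1 and numpy 2.4.6.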

Additional observations from a re-analysis of the deposited data

How the results depend on the processing

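The 6 bound receptor genes became 1 (nhr-47) with only the IDR peaks above the median signal and 12 with the strongest pooled peaks, 2 times as many as in the IDR list; the counts on V became 1 and 4, those in runs 0 and 2, and the expectation by chromosome 7.04 and 24.3, so that observed over expected was 0.142 and 0.493, against 0.447. The share of members stayed below that of other genes in all of these lists. In runs, 0 were bound with 1 start per gene or with runs set at 10 kb, and 2 with runs set at 50 kb. Members with a peak at a q-value under 0.05 numbered 2 without replicate 1 (0.743%, other genes 4.02%) and 25 without replicate 2 (9.29%, other genes 16.3%), and on V 1 and 10, where 2.18% and 9.12% of other genes had one. Without replicate 1, the 1244 strongest peaks of replicate 2 stood in for the IDR list, more than its 790 peaks at a q-value under 0.05. Members with such a summit were nhr-34, nhr-47, nhr-49, nhr-142 and nhr-280 (1.86%, other genes 5.65%). Without replicate 2, the 1244 strongest peaks of replicate 1 gave nhr-1, nhr-2, nhr-34, nhr-47, nhr-48, nhr-49 and nhr-86 (2.6%, other genes 6.5%). Of the 6 genes, nhr-34, nhr-47 and nhr-49 were thus in both, though nhr-34 had a −log10 q of only 0.828 in replicate 2. nhr-49 entered through different peaks. In replicate 2 it was the bound peak (rank 370), in replicate 1 the weaker pooled peak near its outer starts (rank 1185). The bound peak of nhr-49 ranked 1609 in replicate 1, outside the 1244 used. With a peak counted for the closest start alone, the same 6 were bound, against 9.38 expected (0.640). For peaks at a q-value under 0.05 this gave 15 members against 18.8 expected (0.799). ATCGAT was in 19 members' windows from 250 bp upstream to 50 bp downstream, against 71. Of 56 alternatives 40 stayed within 1.5 times the count or expectation. No paired analysis was possible because the series has 1 group. Depth is unknown, and 6 bound genes limit every comparison among members.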
